A study of Cucumis melo with 12 samples.

Results

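The genes described here are those of the melon (Cucumis melo) leaf that already had, averaged over both varieties of the study, 162 and 13-5A, a level of at least 5 FPKM at 0 h, and stood at least 4-fold higher after 12 h at 4 °C in each. They were selected on measured values. For each variety the rise was the difference between the mean log2(FPKM + 1) of the 3 libraries at 12 h and that of the 3 libraries at 0 h, where FPKM is a read level corrected for the length of the gene and the depth of the library. A gene was a member when both rises were at least 2 and its mean over the 6 libraries at 0 h was at least 5 FPKM. Of 21691 genes in the deposited table, 272 had both rises of at least 2, and 150 of these, 0.692% of all genes, met the 0 h minimum and are the members. The other 122 stood below 5 FPKM at 0 h. Because the 0 h minimum pools the varieties, 120 members reached it in each variety, 20 in 162 alone and 10 in 13-5A alone. The lowest 0 h group mean of a member was 1.41 FPKM in 162 and 0.721 FPKM in 13-5A, so some members were not clearly expressed in one of the varieties.

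The 4 groups were variety 162 at 0 h, variety 162 at 12 h, variety 13-5A at 0 h and variety 13-5A at 12 h, each with 3 leaf libraries, 12 in all. The labels call 162 tolerant and 13-5A sensitive to chilling, and assign the 4 °C treatment to all samples. They do not give the temperature before 0 h or name a group held unchilled for 12 h, so chilling and elapsed time cannot be told apart. Nothing in them states that replicates were separate plants, so p-values measure the spread among these libraries and that may be technical. The whole reads behind the FPKM could be recovered, with totals from 41299369 to 45355323 per library.

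Plants answer non-freezing cold by reprogramming transcription. In the best known route, worked out in Arabidopsis, the regulator ICE1 switches on the CBF (DREB1) transcription factors, which bind the CRT/DRE promoter element and raise cold-regulated genes such as those for dehydrins and for enzymes that make protective sugars. Other routes run through calcium signals, abscisic acid and the circadian clock, and melon, a warm-season crop, is injured by chilling that hardier plants withstand. The deposited table gives gene identifiers without names. None of the identifiers matched the name table at hand (0 matched, assembly USDA_Cmelo_AY_1.0), so no member can be placed in these routes, the leaf label could not be checked against marker genes, and the members are described by their identifiers and values.

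At 0 h the members were mostly genes of middling level, and at 12 h many were among the abundant transcripts of the leaf. Their mean over the 0 h libraries ran from 5.06 to 232 FPKM with a median of 13.2, and 57 of the 150 were under 10 FPKM. Over the 12 h libraries the mean ran from 30.4 to 1582 FPKM with a median of 96.0, and 71 members reached 100 FPKM, against 3 at 0 h. Ranked among all genes, 3 members were in the first 1000 at 0 h and 67 at 12 h, of which 7 were in the first 100. The direction of these shifts follows from how the members were chosen.

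Together the members held under 1% of all FPKM at 0 h and 3 to 5% at 12 h. In 162 their share was 0.412%, 0.614% and 0.430% in replicates 1 to 3 at 0 h, and 3.12%, 3.70% and 4.66% at 12 h. In 13-5A it was 0.413%, 0.365% and 0.510% at 0 h, and 3.79%, 3.58% and 3.10% at 12 h. The group means were 0.485% ± 0.112 and 3.83% ± 0.779 in 162 and 0.429% ± 0.0743 and 3.49% ± 0.356 in 13-5A (SD, n = 3 each). The libraries of the varieties overlapped in this share at each time. The load was spread over many members: the 10 highest held 29.4% of the members' summed FPKM at 0 h and 30.8% at 12 h. In whole leaves, a gene made by fewer cells and one with less RNA per cell cannot be told apart.

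**Figure D1:**
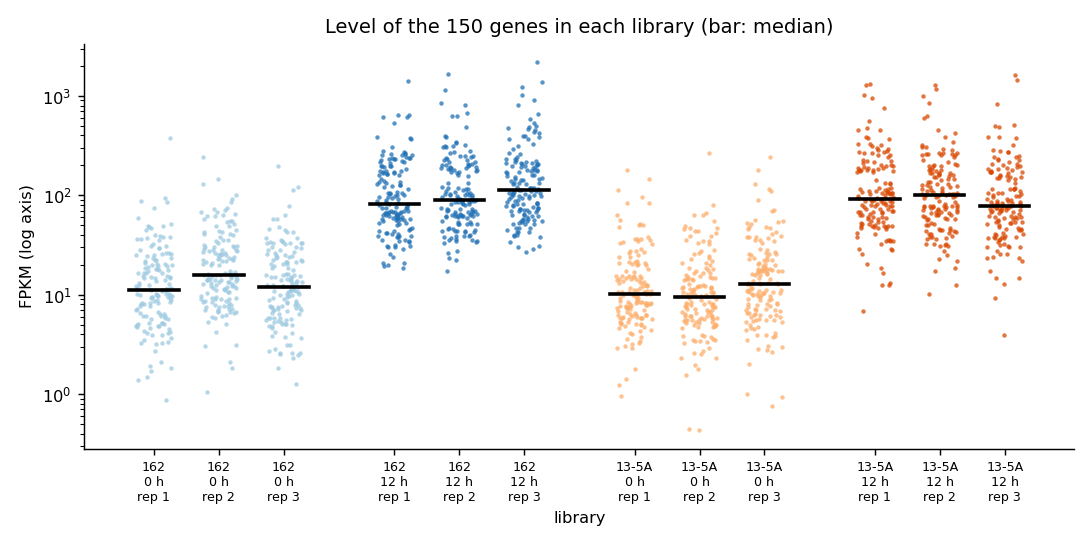
Level of the 150 members in each of the 12 libraries, as FPKM on a log axis; each point is a gene and each bar the median of the library. The medians lie between 9.43 and 15.8 FPKM in the 0 h libraries and between 78.7 and 113 FPKM in the 12 h libraries.

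In 150 of 150 members every 12 h library of 162 lay above every 0 h library of 162, and the same held for 150 of 150 in 13-5A. Among the 15592 tested genes (1 FPKM or more on average over all 12 libraries) this was so for 22.1% in 162 and 34.8% in 13-5A. All 150 were called higher at 12 h in each variety by limma (Benjamini-Hochberg adjusted p under 0.05 and a difference of at least 1 on the log2 scale), against 9.24% of tested genes in 162 and 12.6% in 13-5A. The rule used these contrasts, so the counts are a description and nothing is read from them.

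The median rise was below 3 in each variety, with a tail of larger rises. The smallest rise in 162 was 2.05, the median 2.64 with quartiles of 2.31 and 3.14, and the largest 6.004. For 13-5A the smallest was 2.01, the median 2.79 with quartiles of 2.34 and 3.22, and the largest 5.77. In 33 members both rises were under 2.5, in 37 both were at least 3, and in 7 both were at least 4.

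MELO3C026611.2 had the highest mean of both rises; here and below, values of a group follow replicates 1, 2 and 3. Its level in 162 was 1.70, 11.1 and 3.74 FPKM at 0 h and 271, 201 and 104 FPKM at 12 h, a rise of 5.06. In 13-5A it stood at 5.87, 3.78 and 12.8 FPKM at 0 h and at 479, 309 and 496 FPKM at 12 h, a rise of 5.77. Its replicates at 0 h differed several-fold in both varieties, but the lowest 12 h value was far above the highest 0 h value. Its model is short, 327 bases, and the fewest reads behind any of its values were 24.

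MELO3C022429.2 came next. In 162 it stood at 1.40, 3.06 and 2.49 FPKM at 0 h and at 257, 216 and 160 FPKM at 12 h, a rise of 6.004, the largest of any member in this variety. Its level in 13-5A was 8.58, 4.94 and 12.8 FPKM at 0 h and 222, 154 and 181 FPKM at 12 h, a rise of 4.32. The 0 h libraries of 162 were all below those of 13-5A, whereas at 12 h the varieties overlapped.

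MELO3C003015.2 was the most abundant member at both times. The 162 libraries gave 378, 243 and 199 FPKM at 0 h and 1408, 1670.2 and 2177 FPKM at 12 h. The 13-5A libraries gave 178, 268 and 129 FPKM at 0 h and 1308, 1303 and 1625 FPKM at 12 h. The varieties overlapped at each time, and its rises were 2.70 in 162 and 2.93 in 13-5A.

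MELO3C003592.2 was second in abundance at both times and far less even. Its level in 162 was 86.2, 147 and 114 FPKM at 0 h and 617, 1155 and 1372 FPKM at 12 h. In 13-5A it stood at 146, 79.8 and 242 FPKM at 0 h and at 1286, 1181 and 389.5 FPKM at 12 h. Replicate 3 of 13-5A at 12 h was the low library here, a pattern that other members shared, as described further on.

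**Figure D2:**
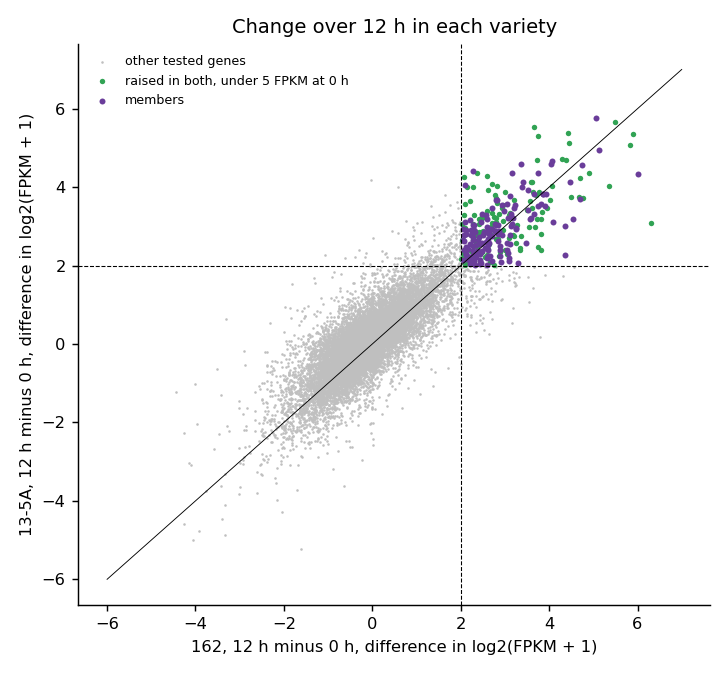
Change over 12 h in 162 (horizontal axis) and 13-5A (vertical axis), each as the difference in mean log2(FPKM + 1), for the tested genes. The 150 members, purple, and the 122 genes raised from below 5 FPKM, green, lie above and to the right of the dashed limits of 2 by the rule, and the solid line marks equal changes.

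In most members the rises were under 0.5 apart, but the rule set the same lower limit of 2 on both, which favours similar sizes. The difference of the rises, 162 minus 13-5A, is made of the contrasts that chose the members and is given without a test. It was under 0.5 in size in 97 of 150 members and over 1 in 11, of which 6 rose more in 162 and 5 more in 13-5A. The rise was larger in 162 in 68 members and larger in 13-5A in 82, and the median difference was -0.05. That median has no stable sign: it was 0.13 with median-ratio scaling, which equalises the typical gene between libraries, and 0.14 without replicate 2 of 162 at 0 h. Over the 150 members, Pearson's r between the rise in 162 and the rise in 13-5A was 0.659, and Spearman's rho was 0.549. The rule cut both rises at 2, and genes within a variety share libraries. These values are therefore a description of the members, and no agreement between the varieties is read from them.

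The members with the most unequal rises showed different patterns. MELO3C006560.2 had the largest difference in favour of 162, 2.10. In 162 it stood at 2.11, 1.84 and 2.58 FPKM at 0 h and at 68.2, 81.2 and 46.8 FPKM at 12 h, a rise of 4.36. Its level in 13-5A was 7.70, 12.6 and 3.95 FPKM at 0 h and 49.1, 37.3 and 32.6 FPKM at 12 h, a rise of 2.26. The varieties did not overlap at 0 h, where 162 was low, and overlapped at 12 h. MELO3C022429.2, given above, was next with a difference of 1.68.

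MELO3C002579.2 had the largest difference in favour of 13-5A, -2.12. The 162 libraries gave 5.23, 6.97 and 7.92 FPKM at 0 h and 25.4, 42.9 and 43.1 FPKM at 12 h. The 13-5A libraries gave 5.999, 2.31 and 3.93 FPKM at 0 h and 112, 94.2 and 98.6 FPKM at 12 h. The varieties overlapped at 0 h and were apart at 12 h, with 13-5A above. MELO3C014481.2, next with -1.96, stood at 20.7, 22.1 and 75.4 FPKM in 162 and at 103, 67.9 and 147 FPKM in 13-5A at 12 h, where replicate 3 of 162 reached into the range of 13-5A.

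The difference between the varieties averaged over both times is a contrast orthogonal to both rises in this balanced design. It is not free of the rule, since a gene high at 0 h in a single variety can meet the pooled minimum through that variety alone. The counts of members that differed between varieties are therefore a description. A p-value is given below only for this average, and only for a named member that reached 5 FPKM at 0 h in each variety. The differences at 0 h and at 12 h contain part of the difference of the rises, so they are given without a p-value. By limma, 20 members were called higher in 162 and 7 lower for the average, 13.3% and 4.67% of the 150, against 7.25% and 2.37% of all tested genes. In both directions together this was 18% of members and 9.62% of tested genes, or 9.65% of the 11446 genes with a pooled 0 h mean of at least 5 FPKM.

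The members admitted through a single variety held many of these calls. Among the 120 members at 5 FPKM or more in each variety, 15 were called for the average, which is 12.5%. Among the other 30, 12 were called, 9 higher in 162 and 3 lower, each towards the variety through which it met the minimum. At an adjusted p under 0.05 without the 2-fold limit, the order turned, with 38% of members against 46.6% of all tested genes.

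The split between higher and lower depended on the scaling. Under median-ratio scaling the median of all tested genes for this average moved from 0.15 to -0.03. Then 12 members were called higher and 12 lower, against 4.71% and 3.71% of all tested genes, and 19 of these members were among the 27 above. The members' own median moved with it, from 0.18 to -0.02. Regardless of sign, the median size of the averaged difference was 0.40 for the members and 0.33 for all tested genes.

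MELO3C018469.2 had the largest deficit in 162 and met the 0 h minimum through 13-5A alone. Its level in 162 was 1.84, 6.52 and 2.69 FPKM at 0 h and 18.7, 27.7 and 29.1 FPKM at 12 h. In 13-5A it stood at 23.7, 27.3 and 34.6 FPKM at 0 h and at 268, 265 and 173 FPKM at 12 h. The level that 162 reached at 12 h was about that of 13-5A at 0 h, and its rises were 2.58 in 162 and 2.99 in 13-5A. The difference averaged over times was -2.97 on the log2(FPKM + 1) scale (SE 0.23).

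MELO3C015469.2, which reached the minimum in each variety, was next among the members lower in 162. In 162 it stood at 9.32, 7.73 and 9.82 FPKM at 0 h and at 56.5, 54.8 and 109 FPKM at 12 h. Its level in 13-5A was 26.4, 21.0 and 36.9 FPKM at 0 h and 257, 196 and 249 FPKM at 12 h. The varieties were apart at both times, and the averaged difference was -1.62 (SE 0.19, limma adjusted p = 3.21e-05). This member was named from those called for the average, so an adjusted p under 0.05 followed from that choice.

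MELO3C025219.2, with the second largest averaged difference in favour of 162, met the minimum through 162 alone. The 162 libraries gave 47.3, 24.9 and 25.01 FPKM at 0 h and 262, 335 and 392 FPKM at 12 h. The 13-5A libraries gave 1.42, 2.29 and 3.78 FPKM at 0 h and 132, 101 and 38.6 FPKM at 12 h. The averaged difference was 2.63 (SE 0.29). The varieties were apart at both times, by 3.25 at 0 h (SE 0.41) and 2.01 at 12 h (SE 0.41).

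MELO3C013919.2 had the largest averaged difference in favour of 162, 3.23 (SE 0.56), and the widest spread within groups of any member. It too met the minimum through 162 alone. Its level in 162 was 1.47, 40.6 and 28.4 FPKM at 0 h and 67.0, 60.9 and 114 FPKM at 12 h. In 13-5A it stood at 0.957, 0.442 and 0.764 FPKM at 0 h and at 6.87, 10.2 and 3.89 FPKM at 12 h. Replicate 1 of 162 at 0 h was near the level of 13-5A, and the other 2 were far above it. The 0 h difference, 3.08 (SE 0.79), became 4.36 without that library, and was not called by limma voom on the recovered reads (4.10, SE 1.85). The fewest reads behind a value of this gene were 12, in 13-5A at 0 h.

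At 0 h, 20 members were called higher in 162 and 11 lower, 13.3% and 7.33%, where the shares of all tested genes were 11.7% and 3.08%. Of these 31, 16 were among the 120 members that reached the minimum in each variety, 13.3% of them, against 15.8% of all genes with a pooled 0 h mean of at least 5 FPKM. The wider set met the minimum only as a pooled mean. Requiring it in each variety removes genes with large 0 h differences, so these shares are not compared. Median-ratio scaling moved the median of all tested genes from 0.24 to -0.03 and turned the majority, with 12 members higher and 17 lower, against 6.80% and 6.34% of all tested genes. MELO3C012553.2, which met the minimum through 13-5A alone, had the second largest deficit in 162 at 0 h. There it stood at 1.92, 1.05 and 1.26 FPKM in 162 and at 12.2, 8.06 and 10.7 FPKM in 13-5A, without overlap (difference -2.23, SE 0.28). At 12 h it stood at 40.9, 33.9 and 80.8 FPKM in 162 and at 78.2, 102 and 87.5 FPKM in 13-5A, where the groups overlapped and the difference of -0.87 (SE 0.28) was under the 2-fold limit. MELO3C022429.2 and MELO3C006560.2 likewise met the minimum through 13-5A alone, with 0 h differences of -1.51 (SE 0.30) and -1.40 (SE 0.32), and were not called at 12 h.

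At 12 h, 14 members were called higher in 162 and 8 lower, 9.33% and 5.33%, where the shares of all tested genes were 4.97% and 2.92%. Of these 22, 12 were among the 120 that reached the 0 h minimum in each variety, 10% of them, against 6.98% of all genes with a pooled 0 h mean of at least 5 FPKM. Here too the sets met the minimum in unlike ways. The count of 22 fell to 14 without replicate 3 of 13-5A at 12 h. The share of all tested genes called fell as well, from 7.90% to 6.29%. Under median-ratio scaling the median of all tested genes moved only from 0.07 to -0.02. Then 11 members were called higher and 8 lower, against 4.01% and 3.64% of all tested genes. MELO3C025521.2, above the minimum in each variety, was second among those higher in 162, after MELO3C013919.2. At 12 h it stood at 226, 341 and 665 FPKM in 162 and at 63.2, 130 and 34.1 FPKM in 13-5A, apart but with a wide spread in each (difference 2.48, SE 0.46). MELO3C018967.2, also above it in each, was second among those lower in 162, after MELO3C018469.2. At 12 h it stood at 31.1, 59.7 and 56.1 FPKM in 162 and at 189, 181 and 159 FPKM in 13-5A (difference -1.88, SE 0.40), and at 0 h the varieties overlapped.

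In all, 39 members were called in at least 1 of these 3 comparisons between varieties and 111 in none, so 26% against 18.1% of all tested genes. The 0 h and 12 h calls pointed the same way in 16 members, 12 higher and 4 lower in 162, and opposite ways in 0. That is 10.7% of members and 4.7% of all tested genes, and the pooled minimum bears on these shares as well. A further 15 were called at 0 h without being called at 12 h, 6 at 12 h without being called at 0 h, and 2 by the average alone; for these a change of the difference over time is not shown. The sign of the difference was the same at both times in 108 of the 150. Across members the mean levels of the varieties correlated at r = 0.716 at 0 h (Spearman's rho 0.701) and r = 0.761 at 12 h (Spearman's rho 0.738). Over all tested genes r was 0.912 and 0.939 (rho 0.910 and 0.939), again as a description over genes that share libraries. The members span a narrower range of levels at 0 h, from a pooled 5 FPKM up, with only 3 among the 1000 highest genes. A narrower range can by itself lower a correlation, so the members and all tested genes are not compared in this.

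**Figure D3:**
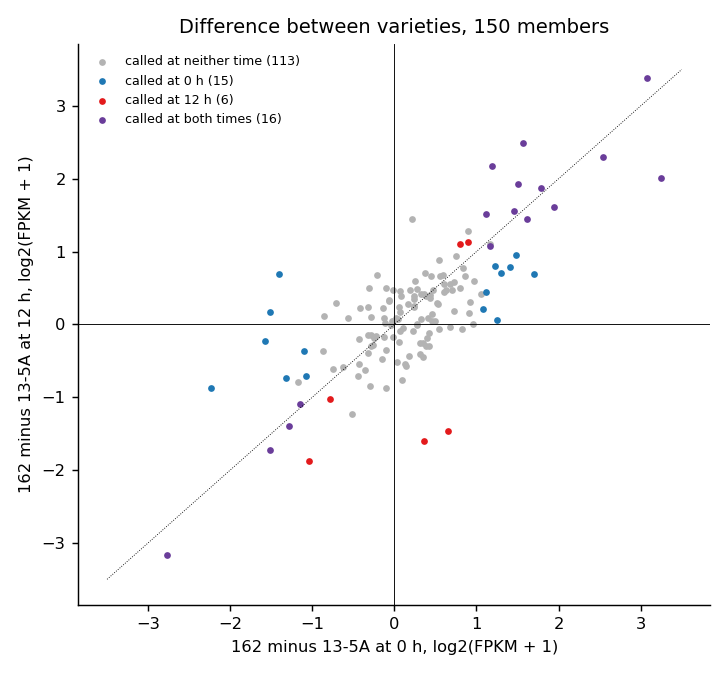
Difference between varieties, 162 minus 13-5A in mean log2(FPKM + 1), at 0 h (horizontal axis) and 12 h (vertical axis) for the 150 members, coloured by the comparisons in which limma called them. The dotted line marks equal differences; of the 16 members called at both times 12 are higher in 162 and 4 higher in 13-5A at both times.

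How far a member varied among replicates was not used by the rule. The within-group standard deviation, pooled over the 4 groups on the log2(FPKM + 1) scale, had a median of 0.40 in the members, 0.23 in all tested genes and 0.22 in the 11446 genes with at least 5 FPKM at 0 h. It was above the upper quartile of the last set, 0.31, in 112 of 150 members. These values are set side by side without a test. The most even members were MELO3C003075.2 and MELO3C020910.2. MELO3C003075.2 stood at 5.81, 7.83 and 7.53 FPKM at 0 h and at 34.7, 36.4 and 30.3 FPKM at 12 h in 162, and in 13-5A at 5.68, 4.65 and 5.51 FPKM and at 49.96, 43.8 and 44.8 FPKM. MELO3C020910.2 stood at 6.77, 6.66 and 7.09 FPKM at 0 h and at 34.4, 35.8 and 38.9 FPKM at 12 h in 162, and in 13-5A at 4.65, 3.83 and 6.26 FPKM and at 41.4, 39.1 and 37.8 FPKM. Both had rises of over 2 with a spread smaller than that of the median tested gene.

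At the other end, MELO3C011277.2 followed MELO3C013919.2 in spread. In 162 it stood at 0.872, 28.4 and 22.0 FPKM at 0 h and at 78.1, 68.4 and 54.9 FPKM at 12 h. Its level in 13-5A was 1.24, 0.434 and 0.991 FPKM at 0 h and 12.6, 17.3 and 9.28 FPKM at 12 h. As in MELO3C013919.2, replicate 1 of 162 at 0 h was at the level of 13-5A while the other 2 were not.

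Part of this spread was common to the members. Within groups, the deviations of 2 members correlated at 0.22 on average over all pairs of members, against 0.0162 over pairs of tested genes and 0.0873 over pairs of the 122 genes raised from below 5 FPKM. The first component of the members' deviations held 42.1% of their within-group variance. Replicate 2 of 162 at 0 h was the highest of its group in 100 of 150 members, with a median deviation of 0.35, and 24 members stood there at more than double both other replicates, as did 2.10% of all tested genes. Replicate 3 of 162 at 12 h was the highest in 99 members and replicate 3 of 13-5A at 0 h in 105, with median deviations of 0.24 and 0.23. In these 3 libraries the median deviation of all tested genes was 0.03, 0.01 and 0.04. Replicate 1 of 162 at 12 h was the lowest in 84 members, replicate 2 of 13-5A at 0 h in 91 and replicate 3 of 13-5A at 12 h in 79. Median deviations there were -0.20, -0.18 and -0.10 in the members and 0.01, -0.02 and -0.03 in all tested genes. How often each library was the highest or lowest over all tested genes was not counted. Whether a difference between plants, positions or sampling moves with these libraries was not tested, since the labels give none. Without replicate 2 of 162 at 0 h the median rise in 162 was 2.85 in place of 2.64, and the rule then gave 161 genes, 137 of them among the 150.

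**Figure D4:**
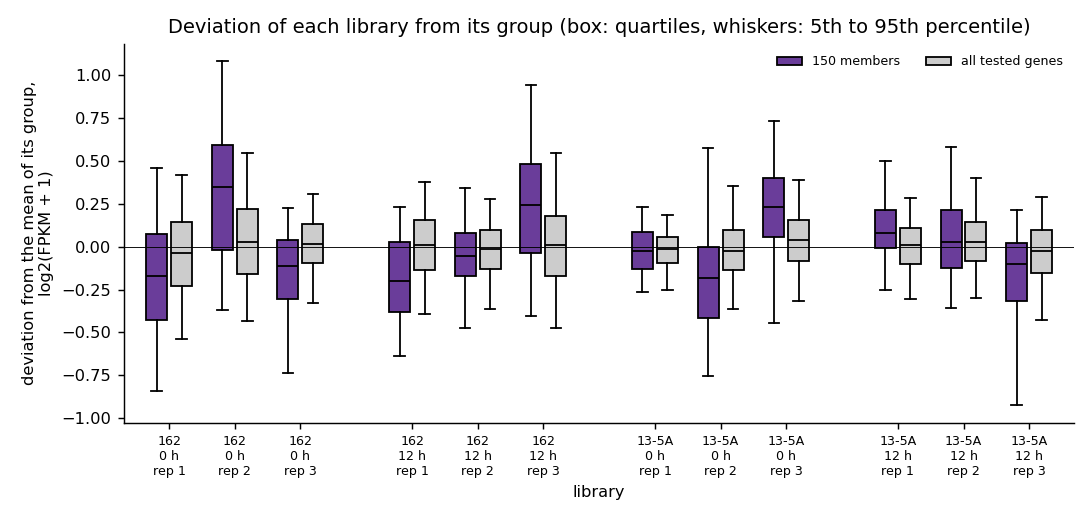
Deviation of each library from the mean of its group, in log2(FPKM + 1), for the 150 members (purple) and all tested genes (grey); boxes span the quartiles and whiskers the 5th to 95th percentile. The members' medians reach 0.35 in replicate 2 of 162 at 0 h and -0.20 in replicate 1 of 162 at 12 h, while those of all tested genes stay between -0.04 and 0.04.

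A set of 10 members was low in the same library. In each, both other replicates of 13-5A at 12 h were more than double replicate 3, a limit chosen after the values were seen. MELO3C003592.2 and MELO3C025219.2, given above, were among them. Over all tested genes 2.41% met this limit. Their level there was 26.4% to 44.2% of the mean of the other 2 replicates. MELO3C012246.2 and MELO3C004373.2 serve as examples, also chosen after their values were seen. MELO3C012246.2 stood at 762, 632 and 202 FPKM in 13-5A at 12 h, and MELO3C004373.2 at 187, 161 and 45.9 FPKM. The median deviation in that library was -1.07 for the 10 and -0.07 for the other 140 members.

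Other libraries did not enter this limit. In 10 of 10, replicate 1 of 162 at 12 h was the lowest of its group, as it was in 84 of all 150 members. There the 10 stood at 41.5% to 75.6% of the mean of the other 2 replicates. Their median deviation there was -0.65 against -0.17 in the other 140. In 162 at 12 h, MELO3C012246.2 stood at 369, 857 and 808 FPKM and MELO3C004373.2 at 171, 388 and 435 FPKM. Replicate 3 of 13-5A at 0 h was the highest of its group in 9 of the 10 and in 105 of all 150 members, and replicate 2 the lowest in 7 and in 91. Replicate 2 of 162 at 0 h gave a median deviation of -0.06 in the 10 and 0.38 in the other 140. The 24 members doubled there included 0 of the 10, but with 10 of 150 members in the set nothing is read from that. The 10 had rises of 2.24 to 4.48 in 162 and 2.06 to 4.59 in 13-5A, within the range of the other members.

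**Figure D5:**
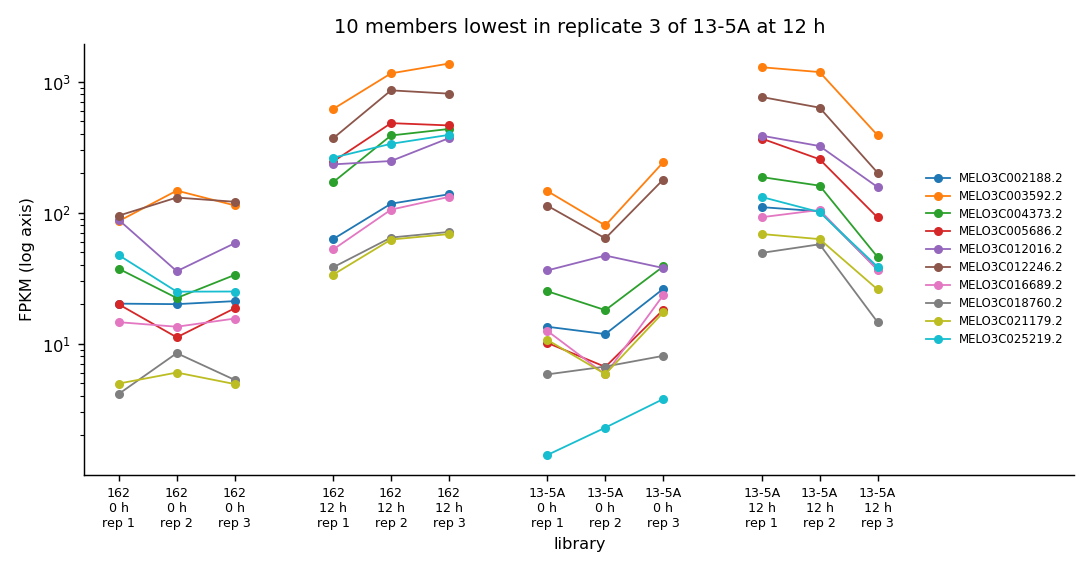
FPKM, on a log axis, of the 10 members chosen for a low value in replicate 3 of 13-5A at 12 h, in all 12 libraries; lines join the points of 1 gene within a group and imply no order of replicates. All 10 are also lowest in replicate 1 of 162 among the 162 libraries at 12 h.

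The members were set beside the 122 genes raised in both varieties from below 5 FPKM, the group most like them. Those 122 had rises with a median of 2.81 in 162 and 3.12 in 13-5A and held 0.0445% ± 0.00963 of all FPKM in 162 and 0.0368% ± 0.00587 in 13-5A at 0 h (SD, n = 3), and 0.670% ± 0.158 and 0.632% ± 0.0553 at 12 h. The within-group standard deviation had a median of 0.39, close to the 0.40 of the members. The 2 rises of a gene were further apart, with a median size of the difference of 0.54 against 0.32 in the members. Calls between varieties at 12 h were made for 17.2% of the 122 and 14.7% of the members. Among the members this was 10% of the 120 above the 0 h minimum in each variety and 33.3% of the other 30. Nothing is read from these shares, and the average over times is not compared. The pooled 0 h mean that divides the sets also depends on the difference between varieties. At low levels the added 1 FPKM shrinks log2 differences, and none of these contrasts between the sets was tested. Gene length, recovered from the values, had a median of 1709.5 bases in the members, 1302.5 in the 122 and 1645 in all tested genes, and ran from 291 to 4388 in the members.

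The limits of the rule passed through a continuous range. Just inside the limit on the rises were MELO3C017945.2, with 2.60 in 162 and 2.01 in 13-5A, and MELO3C011853.2, with 2.32 and 2.02. Just outside were MELO3C012455.2, with 1.99 and 2.89, and MELO3C003339.2, with 1.99 and 2.57. Just inside the 0 h limit were MELO3C003730.2 at 5.06 FPKM and MELO3C003646.2 at 5.13 FPKM, and just outside were MELO3C025165.2 and MELO3C001017.2, both at 4.91 FPKM. MELO3C025165.2 had rises of 4.46 and 5.12, larger than those of nearly all members, and reached a mean of 169 FPKM over the 12 h libraries. All 150 members passed the filter of 1 FPKM by the 0 h minimum itself.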

How the data were processed

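The authors deposited FPKM per gene for 12 leaf libraries, sequenced in paired ends per the labels' protocols. Which aligner, counter, genome build and annotation they used is not given in the sources used here. Each column was tied to a sample by its description, and 0 columns belonged to other samples. Solving for gene lengths and library totals recovered whole reads, within 0.01 reads for all values of the tested genes; at the median length of 1645 bases, 1 FPKM is about 72.7 reads or read pairs.

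The main test was limma 3.58.1 (R 4.3.3, intensity trend) on log2(FPKM + 1), fitted to the 15592 genes averaging 1 FPKM or more. All 12 libraries entered with group as the single factor, leaving 8 residual degrees of freedom. A call needs an adjusted p (Benjamini-Hochberg, all tested genes) under 0.05 and a log2 difference of at least 1. This scale understates the change of low genes. The scripts were tested on simulated data. Figures used Python 3.11.15 and matplotlib 3.10.9.

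The members, lists and limits were chosen with earlier results of these data known. Genes were named by rule, at most 2 per list: highest mean rise, highest level at each time, most unequal rises, largest called differences between varieties in each comparison and direction, widest and narrowest spread, and nearest either side of each limit. Lists of cold response genes or cell type markers could not be matched to the identifiers. Alternatives covered the pseudocount, filter, scaling, trend, fold minimum, groups fitted, replicate block, voom on recovered reads, the limits of the rule, and each library left out.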

Additional observations from a re-analysis of the deposited data

How the results depend on the processing

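Recomputed under the alternatives, 488 of 496 values kept to within 1.5 times a count, to the spread between libraries or to their side of the threshold. Many of these could not move. Shares of FPKM do not depend on the scaling, and values of a group do not change when a library of another group is left out. These limits also ignore direction. The median-ratio change for the average, from 20 higher and 7 lower to 12 and 12, was counted as kept, so the 488 do not measure robustness. Without the fold minimum the members called between varieties numbered 57 for the average, 47 at 0 h and 34 at 12 h, which is 38%, 31.3% and 22.7% of them against 46.6%, 41.8% and 22.1% of all tested genes. Leaving out each library gave 23 to 29, 27 to 35 and 14 to 24 calls, the 14 without replicate 3 of 13-5A at 12 h, and 149 to 150 for each contrast over time. The replicate block gave 27, 32 and 21 calls, against 9.61%, 14.8% and 7.75% of all tested genes, and the block changed no call of a member over time. The labels do not say whether equal replicate numbers mark paired samples. Deviations in 18 same-numbered pairs correlated at -0.31 to 0.31, with 2 over 0.1. With 3 libraries per group this cannot decide whether samples were paired. By the rule itself, 318 genes had rises of at least 1.5, 37 of at least 3, and 93 a 0 h mean of at least 10 FPKM; each library left out gave 135 to 163 members. For MELO3C013919.2 at 0 h voom gave 4.10 and no call. The cause was not tested. The fewest reads behind any value were 12, and intervals from reads would cover counting error only.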
